A study of Mus musculus with 20 samples.

Results

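The 10 heat-shock chaperone genes *Hspa1a*, *Hspa1b*, *Hspa8*, *Dnajb1*, *Hsph1*, *Hsp90aa1*, *Hspb1*, *Hspa5*, *Hspd1* and *Hspe1* were examined, chosen by name from the 35580 genes to which transcripts were summed. All 10 had annotated transcripts and all 10 passed the filter on low counts in each comparison. Their estimated counts and TPM (a level corrected for transcript length) were summed over all transcripts of a gene, and levels were compared between samples as CPM, which relate counts to the library total after TMM scaling. The samples were bulk mRNA of the hippocampus and the neocortex of male C57BL/6J mice aged 13.5 months, with 5 samples in each of 4 groups: WT hippocampus, miR-324-null hippocampus, WT neocortex and miR-324-null neocortex. WT mice were wild-type controls, and miR-324-null mice lacked *Mir324* in the whole body rather than in one cell type, and the labels name no treatment for either genotype. The short *Mir324* RNA is not measured by mRNA libraries of this kind, so the genotype labels were not checked on it.

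Heat-shock proteins are molecular chaperones that bind unfolded or aggregating proteins and help them to fold or to be degraded. The cytosolic HSP70 proteins hold a client with energy from ATP, J-domain proteins such as *Dnajb1* bring them the client and start the ATP step, and *Hsph1* releases the spent nucleotide, after which some clients pass to HSP90. Separate chaperones serve the endoplasmic reticulum and the mitochondrion. When proteins unfold in the cytosol the transcription factor HSF1 binds repeated units of the sequence GAA in promoters, and when they unfold in the endoplasmic reticulum other factors act through a different promoter element. In the brain many of these genes are also expressed at rest, at high levels in neurons for *Hspa8* and *Hsp90aa1*.

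All 10 are protein-coding. In GRCm38 *Hspa1a* lies at chr17:34969190-34972156 and *Hspa1b* at chr17:34956436-34959238, both on the minus strand and with 1 annotated transcript each. *Hspa8* lies at chr9:40800984-40810087 (plus strand), *Dnajb1* at chr8:83608193-83612653 (plus), *Hsph1* at chr5:149614287-149636376 (minus) and *Hsp90aa1* at chr12:110690605-110702728 (minus). *Hspb1* lies at chr5:135887919-135889563 (plus) and *Hspa5* at chr2:34771970-34777547 (plus). *Hspd1* at chr1:55077835-55088243 (minus) and *Hspe1* at chr1:55088132-55091307 (plus) overlap at their 5′ ends on opposite strands, and reads of that stretch can be told apart only by strand.

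Promoter windows of 300 bases, from 250 before to 50 after the transcription start, were given by RefSeq (GRCm38.p6) for 8 of the 10 genes, with *Hspa8* and *Hsp90aa1* the genes with no entry. They are shown because several of these genes varied together between samples. The stretches below, 30 bases each and 5′ to 3′ on the strand of the gene, each hold 1 of the matches found, with that match in capitals. The letters searched on both strands were GAANNTTCNNGAA for a heat-shock element of 3 units, GAANNTTC for 2 units, which is also contained in every match of 3 units, and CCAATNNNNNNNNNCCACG for the endoplasmic reticulum stress element.
Hspd1, chr1:55088055-55088084, minus strand: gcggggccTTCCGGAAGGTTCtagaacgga
Hspe1, chr1:55088056-55088085, plus strand: ccgttctaGAACCTTCCGGAAggccccgcg
Hsph1, chr5:149636287-149636316, minus strand: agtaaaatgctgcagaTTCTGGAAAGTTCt
Hspa1a, chr17:34972242-34972271, minus strand: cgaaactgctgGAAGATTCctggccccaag
Hspa1b, chr17:34959324-34959353, minus strand: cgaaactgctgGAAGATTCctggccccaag
Hspb1, chr5:135887791-135887820, plus strand: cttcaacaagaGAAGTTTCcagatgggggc
Hspb1, chr5:135887811-135887840, plus strand: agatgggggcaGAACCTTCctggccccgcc
Hspa5, chr2:34772020-34772049, plus strand: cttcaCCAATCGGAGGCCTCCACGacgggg
The genes *Hspd1* and *Hspe1* lie head to head, so that their stretches are overlapping DNA read from opposite strands. Each of these 2 stretches holds another 3-unit match that overlaps the one in capitals and is left in lower case outside it. It starts at position -139 from the transcription start of the *Hspd1* window that holds it and at -89 from that of *Hspe1*. That *Hspd1* window is chr1:55087883-55088182. The *Hspd1* window chr1:55088194-55088493, which holds the 5′ end of the gene given above, held none of the 3 motifs. The match of *Hsph1* lies 36 bases after the transcription start of 1 of its windows and 15 after that of another. The other matches lie before the start of the window that holds them. The 3-unit letters were in a window of *Hspd1*, *Hspe1* and *Hsph1* and in 0.603% of all 32851 windows. The 2-unit letters were in a window of 6 of the 8 genes and in 7.86% of all windows, and *Hspb1* held them at 2 places. The endoplasmic reticulum stress element was in the window of *Hspa5*, starting 65 bases before the transcription start, and in 0.119% of all windows. Neither of the 2 windows of *Dnajb1* held any of the 3 motifs. A match is a run of letters and not evidence of binding. The windows of *Hspa1a* and *Hspa1b* were the same at 296 of 300 bases (98.7%).

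Estimated counts summed to between 12752439 and 19617765 per sample. Summed TPM of 10 hippocampal field markers was 242 to 344 in the hippocampus and 45.1 to 117 in the neocortex, and that of 10 neocortical layer markers was 149 to 256 in the hippocampus and 579 to 865 in the neocortex, so both tissues carried their defining markers. Within the neocortex the hippocampal field markers were at 45.1 to 63.5 TPM in WT samples, at 88.9 to 117 in the miR-324-null samples numbered 1 to 4 and at 50.7 in the one numbered 5. Of the 8 tested there, 6 had an unadjusted p of at most 0.05 between genotypes (edgeR), against 12.2% of all genes. All 6 were higher in miR-324-null samples, and 0 passed the adjusted test. The layer markers were at 693 to 803 TPM in WT neocortex, at 579 to 722 in the miR-324-null samples numbered 1 to 4 and at 865 in the one numbered 5. The 8 choroid plexus markers reached 6977, 6019 and 1292 TPM in 3 samples and were between 19.0 and 182 in the other 17. These were WT hippocampus sample 3, miR-324-null hippocampus sample 5 and miR-324-null neocortex sample 2, and how choroid plexus bears on the chaperones of these samples was not tested. Striatal markers ranged from 167 to 434 TPM in WT and from 284 to 831 in miR-324-null neocortex, where the lowest was that of the sample numbered 5, and 11 immediate early genes from 506 to 1015 and from 228 to 632 TPM. The miR-324-null samples numbered 5 of both tissues stood apart from the rest of their groups in the genes described here, as set out below. For this reason the genotype values of the 10 genes are given with and without that sample. As it was singled out from these same values, the fits without it are not a separate test. The labels do not say whether samples with the same number come from the same mouse.

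The level per transcript length, in TPM, differed widely between the genes. *Hspa8*, the constitutive cytosolic HSP70, led with a median of 1702 TPM over the 20 samples (range 1531 to 2369) and ranked 32nd among all genes. *Hsp90aa1*, a cytosolic HSP90, followed with 551 TPM (499 to 775). Next came *Hsph1* with 193 TPM, *Hspa5* with 140 TPM, *Hspe1* with 126.3 TPM and *Hspd1* with 103 TPM. The lower levels were those of *Dnajb1* with 24.0 TPM, *Hspb1* with 14.2 TPM, *Hspa1b* with 6.90 TPM and *Hspa1a* with 6.27 TPM. *Hspa8* exceeded *Hsp90aa1*, and *Hsp90aa1* exceeded *Hsph1*, in 20 of 20 samples with no overlap of their ranges. *Hspa5* exceeded *Hspe1* in 15 of 20 samples and *Hspa1b* exceeded *Hspa1a* in 16 of 20, so that the order of these neighbours was not the same in every sample. The inducible genes *Hspa1a* and *Hspa1b* were thus the lowest of the 10, with between 96 and 368 estimated counts in a sample.

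**Figure D1:**
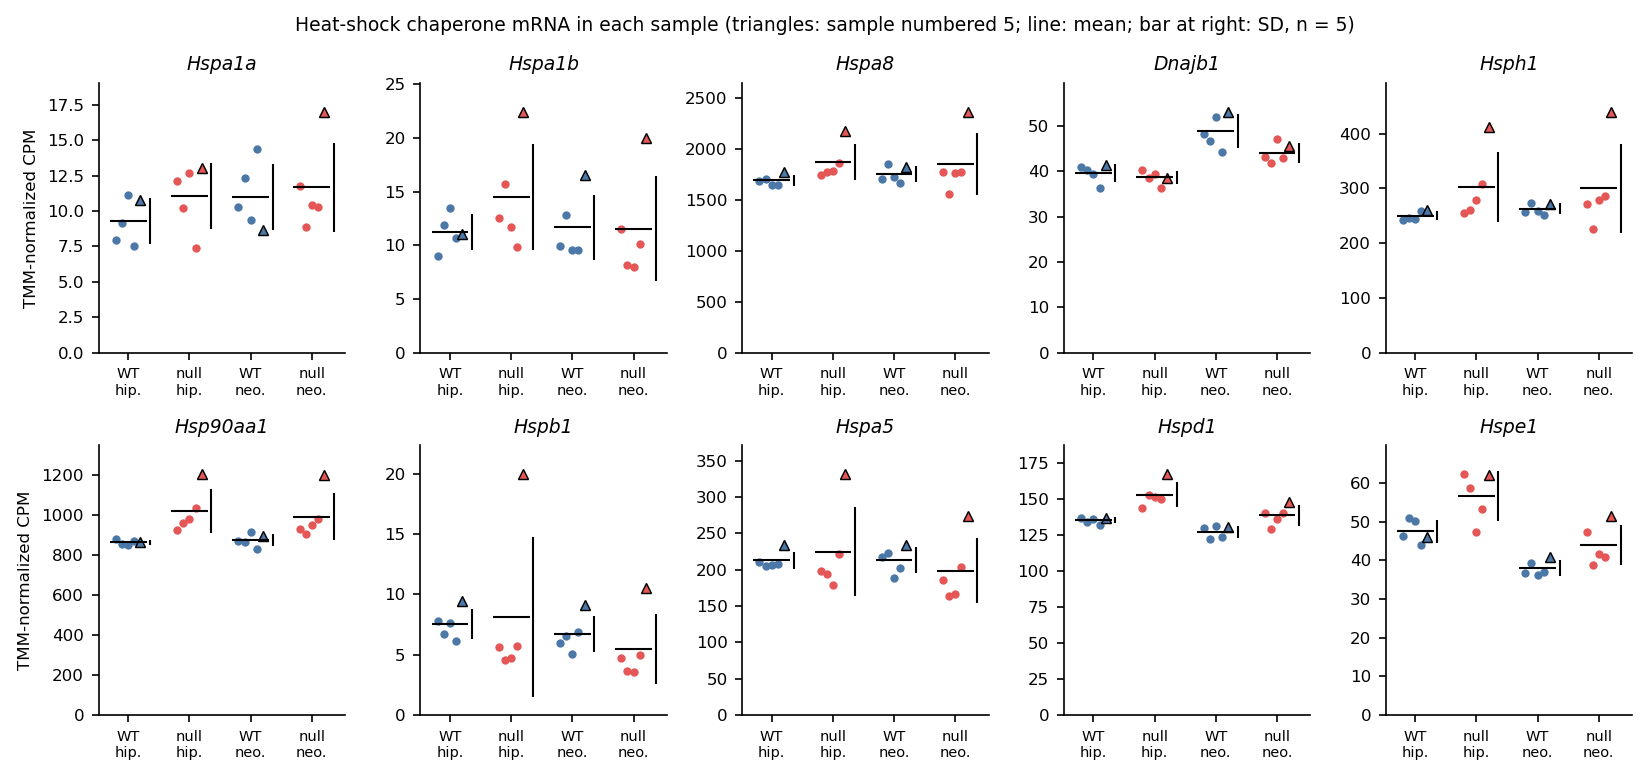
TMM-normalized CPM of the 10 genes in each of the 20 samples, by group (WT in blue, miR-324-null in red; hip., hippocampus; neo., neocortex), with the group mean as a line and the SD as a bar, n = 5. The y axis of each panel starts at 0, and the triangle of the miR-324-null sample numbered 5 is the highest of the 10 samples of both tissues for 8 of the genes.

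Part of these sums came from transcripts that do not code for the whole protein. The retained-intron transcript Hsph1-208, of 751 bases, held 40.3% ± 2.31 (SD, n = 5) of the *Hsph1* TPM in WT hippocampus and 36.3% ± 1.91 in miR-324-null neocortex. For *Hspa8* the coding transcript Hspa8-201 held 43.8% ± 1.72 and the retained-intron transcript Hspa8-204 held 12.7% ± 1.18 in WT hippocampus. One coding transcript each held over 94% of the sum of *Hsp90aa1*, *Hspb1*, *Hspa5*, *Hspd1* and *Hspe1* in each group. Transcripts of *Hspa1a* and *Hspa1b* are alike over 2201 bases at 99.2% identity. Reads that match both are divided between them by kallisto's estimate, so their sum was tested as well. Processed pseudogenes or other annotated copies with at least 95% identity over 100 bases existed for *Hspa8*, *Hsp90aa1*, *Hspb1*, *Hspd1* and *Hspe1*, and their estimated counts together were at most 0.38% of those of the gene.

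Between genotypes in the hippocampus, none of the 10 genes passed edgeR's quasi-likelihood test at an adjusted p of 0.05, where 17 of the 14796 genes tested passed (0.115%). The mean was higher in miR-324-null samples for 9 of the 10, with a median log2 fold change of 0.21 against 0.0012 for all genes tested, though the sign of *Hspb1* turned with limma on log2 TPM. At an unadjusted p of at most 0.05 there were 5 of the 10, all higher in miR-324-null samples, against 11.1% of all genes: *Hspa8*, *Hsph1*, *Hsp90aa1*, *Hspd1* and *Hspe1*. DESeq2's Wald test called *Hspd1* alone, where it called 139 of all genes (0.939%), and limma on log2 TPM called none. For *Hsp90aa1* and *Hspd1* the 5 samples of each genotype did not overlap, against 2.62% of all genes. Without the miR-324-null hippocampus sample numbered 5, the mean was higher for 7 of the 10, with a median of 0.14. EdgeR then called 0 of the 10 and 0.209% of all genes, and 4 of the 10 had an unadjusted p of at most 0.05 against 12.8% of all genes (*Hsp90aa1*, *Hspd1* and *Hspe1* higher, *Hspb1* lower).

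In the neocortex none of the 10 genes passed either, where 47 of 14930 genes passed (0.315%), and neither DESeq2 nor limma called any of them. The mean was higher in miR-324-null samples for 6 of the 10, with a median log2 fold change of 0.09 against 0.0046 for all genes, and *Hspa1b*, at -0.0086, would be a seventh when scaled by library totals alone. At an unadjusted p of at most 0.05 there were 4 of the 10, against 12.2% of all genes: *Hsp90aa1*, *Hspd1* and *Hspe1* were higher and *Dnajb1* was lower in miR-324-null samples. No gene of the 10 had genotypes that did not overlap, against 2.2% of all genes. Without the miR-324-null neocortex sample numbered 5 the mean was higher for 4 of the 10 only, and the median turned to -0.05, against 0.0049 for all genes. EdgeR still called 0 of the 10, but 566 of 15071 genes (3.76%). At an unadjusted p of at most 0.05 there were then 6 of the 10 (*Hsp90aa1*, *Hspd1* and *Hspe1* higher, *Dnajb1*, *Hspb1* and *Hspa5* lower) against 18.2% of all genes. The miR-324-null samples that remained, numbered 1 to 4, had hippocampal field markers at 88.9 to 117 TPM, against 45.1 to 63.5 in WT neocortex. The sample left out had 50.7 TPM. The part of this marker difference in the values without that sample was not tested.

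**Figure D2:**
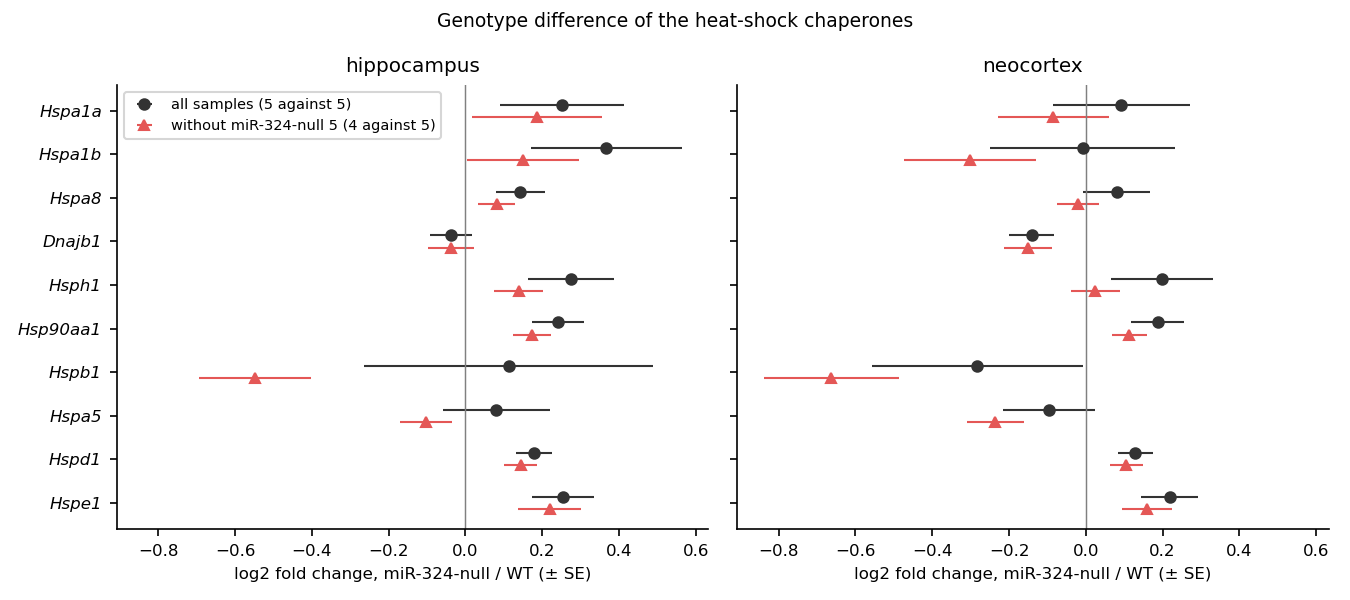
Log2 fold change of miR-324-null against WT (x axis, ± SE of the edgeR fit) of the 10 genes in each tissue, with all samples (circles) and without the miR-324-null sample numbered 5 (triangles). Hspb1 and Hspa5 in the hippocampus and Hspa1a and Hspa8 in the neocortex move across 0 when that sample is left out, and Hsp90aa1, Hspd1 and Hspe1 stay above 0 in both tissues.

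Among the mitochondrial chaperonins, *Hspd1* forms the folding chamber and *Hspe1* its lid. *Hspd1* had 137, 134, 136, 132 and 137 CPM in the 5 WT hippocampus samples and 144, 153, 151, 150.4 and 167 CPM in the miR-324-null ones. Every miR-324-null sample lay above every WT sample. The log2 fold change of *Hspd1* in the hippocampus was 0.18 ± 0.05 (SE; adjusted p = 0.247, edgeR), and DESeq2's Wald test gave 0.18 with an adjusted p of 0.0383. In the neocortex *Hspd1* had 129.9, 122, 131, 124 and 130.5 CPM in WT and 140.1, 129, 136, 140.1 and 148 CPM in miR-324-null samples, which overlapped, with a log2 fold change of 0.13 ± 0.05 (adjusted p = 0.276). *Hspe1* had 46.3, 51.1, 50.3, 44.0 and 46.1 CPM in WT and 62.4, 58.8, 47.3, 53.4 and 62.1 CPM in miR-324-null hippocampus. The third miR-324-null sample lay within the WT range and the other 4 above it, with a log2 fold change of 0.25 ± 0.08 (adjusted p = 0.313). In the neocortex *Hspe1* had 36.6, 39.4, 36.3, 37.0 and 40.9 CPM in WT and 47.5, 38.9, 41.8, 41.0 and 51.4 CPM in miR-324-null samples, with a log2 fold change of 0.22 ± 0.07 (adjusted p = 0.262) and 1 miR-324-null sample inside the WT range. Leaving out the miR-324-null sample numbered 5 gave log2 fold changes of 0.14 and 0.22 for *Hspd1* and *Hspe1* in the hippocampus and of 0.11 and 0.16 in the neocortex. Both genes had higher means in the hippocampus, as given below, and hippocampal field markers were higher in 4 of the 5 miR-324-null neocortex samples than in the WT ones. The part of these markers in the neocortex values was not tested.

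*Hsp90aa1*, the stress-responsive cytosolic HSP90, had 882, 855, 849, 870.4 and 864 CPM in WT hippocampus and 925, 959.7, 981, 1035 and 1204 CPM in miR-324-null hippocampus. The genotypes did not overlap, and the WT samples had an SD of only 12.7 CPM. Its log2 fold change was 0.24 ± 0.07 (adjusted p = 0.264) and 0.17 ± 0.05 without the sample numbered 5. In the neocortex it had 870.2, 863, 914, 832 and 897 CPM in WT and 928, 903, 949.5, 981 and 1198 CPM in miR-324-null samples. The second miR-324-null sample lay within the WT range, and the log2 fold change was 0.19 ± 0.07 (adjusted p = 0.299), or 0.11 ± 0.05 without the sample numbered 5.

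*Hspa8* and its partner *Hsph1*, an HSP110 protein that exchanges the nucleotide of HSP70, followed each other closely. *Hspa8* had 1688, 1703, 1648, 1645 and 1778 CPM in WT and 1746, 1772, 1785, 1861 and 2177 CPM in miR-324-null hippocampus, and the log2 fold change was 0.14 ± 0.06 (adjusted p = 0.438), or 0.08 ± 0.05 (adjusted p = 0.499) without the sample numbered 5. In the neocortex it had 1707, 1853, 1725, 1666 and 1825 CPM in WT and 1777, 1555, 1767, 1777 and 2363 CPM in miR-324-null samples, with a log2 fold change of 0.08 ± 0.09 (adjusted p = 0.772) that became -0.02 ± 0.05 without the sample numbered 5. That sample was the highest for *Hspa8* in each tissue. *Hsph1* had 242, 246, 244, 258 and 261 CPM in WT and 255, 259.8, 279, 308 and 412 CPM in miR-324-null hippocampus, with a log2 fold change of 0.27 ± 0.11 (adjusted p = 0.392) that became 0.14 ± 0.06 without the sample numbered 5. In the neocortex *Hsph1* had 257, 274, 258, 252 and 272 CPM in WT and 272, 225, 279, 286 and 439.5 CPM in miR-324-null samples, and its log2 fold change went from 0.20 ± 0.13 (adjusted p = 0.593) to 0.03 ± 0.06 without that sample. The *Hsph1* level of that sample was 1.53 times the median of the other 4 miR-324-null samples in the hippocampus and 1.59 times in the neocortex.

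*Hspb1*, a small heat-shock protein that holds unfolded proteins without ATP, showed the widest spread of the 10 in both miR-324-null groups. It had 7.75, 6.71, 7.60, 6.14 and 9.47 CPM in WT and 5.62, 4.51, 4.74, 5.74 and 19.9 CPM in miR-324-null hippocampus. The last of these values, in the sample numbered 5, was 3.85 times the median of the other 4, which all lay below the 5 WT samples. In the neocortex it had 5.98, 6.58, 5.07, 6.85 and 9.13 CPM in WT and 4.69, 3.64, 3.57, 5.00 and 10.5 CPM in miR-324-null samples, and the sample numbered 5 was again the highest, at 2.53 times the median of the other 4. The WT sample numbered 5 was also the highest of its group in each tissue. The log2 fold change of *Hspb1* was 0.11 ± 0.38 in the hippocampus (edgeR, adjusted p = 0.947), and for the neocortex the fit gave -0.28 ± 0.27 (adjusted p = 0.736). Without the sample numbered 5 it was -0.55 ± 0.15 in the hippocampus (adjusted p = 0.206), and neocortex samples gave -0.66 ± 0.18 (adjusted p = 0.0592). That miR-324-null sample was singled out because of such high values, while the WT sample numbered 5 was kept. The estimates, SE and p-values without it depend on that choice.

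*Hspa5*, the HSP70 of the endoplasmic reticulum and the usual reporter of its stress response, had a like pattern. It had 209.9, 206, 207, 208 and 233 CPM in WT and 198, 194, 178, 221 and 331 CPM in miR-324-null hippocampus. In the neocortex it had 217, 224, 188, 202 and 234 CPM in WT and 186, 163, 167, 203 and 274 CPM in miR-324-null samples. The sample numbered 5 was the highest of its tissue both times, and in WT mice the sample numbered 5 was also the highest of its group in each tissue. The log2 fold change of *Hspa5* was 0.08 ± 0.14 (adjusted p = 0.876) in the hippocampus and -0.10 ± 0.12 (adjusted p = 0.803) in the neocortex, and it became -0.10 ± 0.07 (adjusted p = 0.547) and -0.24 ± 0.07 (adjusted p = 0.106) without the miR-324-null sample numbered 5. As for *Hspb1*, these last values depend on leaving out a sample singled out for its high levels while the WT sample numbered 5 was kept.

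The inducible HSP70 genes *Hspa1a* and *Hspa1b* showed no genotype difference past their spread. The log2 fold change in the hippocampus was 0.25 ± 0.16 for *Hspa1a* (adjusted p = 0.596) and 0.37 ± 0.20 for *Hspa1b* (adjusted p = 0.511), or 0.19 ± 0.17 and 0.15 ± 0.15 without the sample numbered 5. The neocortex gave 0.09 ± 0.18 (adjusted p = 0.890) and -0.0086 ± 0.24 (adjusted p = 0.996), or -0.08 ± 0.14 and -0.30 ± 0.17 without it. *Hspa1a* had 7.94, 9.17, 11.1, 7.56 and 10.8 CPM in WT and 12.1, 10.2, 12.7, 7.38 and 13.0 CPM in miR-324-null hippocampus, and 10.3, 12.3, 9.34, 14.4 and 8.65 CPM in WT and 11.8, 8.84, 10.4, 10.3 and 17.0 CPM in miR-324-null neocortex. *Hspa1b* had 8.98, 11.9, 13.5, 10.7 and 11.1 CPM in WT and 12.6, 15.8, 11.8, 9.84 and 22.4 CPM in miR-324-null hippocampus, and 9.93, 12.8, 9.61, 9.60 and 16.5 CPM in WT and 11.5, 8.19, 8.02, 10.2 and 19.98 CPM in miR-324-null neocortex. All 4 groups of both genes overlapped. The sum of both genes was 25.5 ± 6.51 CPM in miR-324-null and 20.5 ± 3.03 CPM in WT hippocampus (SD, n = 5; exact two-sided permutation test, p = 0.135), and 23.2 ± 8.03 and 22.7 ± 2.92 CPM in the neocortex (exact permutation test, p = 0.960), where the smallest p that 5 against 5 samples allow is 0.00794. These are 2 tests with no adjustment. The log2 ratio of the sums was 0.31 in the hippocampus, and it fell to 0.17 without miR-324-null sample 5 (exact permutation p = 0.286) and rose to 0.43 without sample 4 (exact permutation p = 0.0238). The neocortex gave 0.03, and -0.20 without miR-324-null sample 5 (exact permutation p = 0.167).

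*Dnajb1*, a J-domain protein that activates HSP70 and a sensitive target of HSF1, showed another pattern. It had 40.9, 40.2, 39.4, 36.4 and 41.3 CPM in WT and 40.3, 38.6, 39.3, 36.2 and 38.5 CPM in miR-324-null hippocampus. In the neocortex it had 48.2, 46.6, 52.0, 44.2 and 53.0 CPM in WT and 43.0, 41.7, 47.1, 42.9 and 45.6 CPM in miR-324-null samples. The sample numbered 5 was inside the range of the others in the miR-324-null groups of both tissues. The log2 fold change of *Dnajb1* was -0.04 ± 0.05 (adjusted p = 0.842) in the hippocampus and -0.14 ± 0.06 (adjusted p = 0.363) in the neocortex, and without that sample it was -0.04 ± 0.06 and -0.15 ± 0.06. *Dnajb1* was lower in the hippocampus than in the neocortex, as given below. Hippocampal field markers were higher in miR-324-null neocortex samples 1 to 4 than in the WT ones. The part of these markers in the neocortex values of *Dnajb1* was not tested.

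Of 96 other genes of the chaperone network that were matched, edgeR called 0 of the 89 tested between genotypes in the hippocampus and 0 of the 90 tested in the neocortex. At an unadjusted p of at most 0.05 there were 21 in the hippocampus (19 higher in miR-324-null samples and 2 lower) and 10 in the neocortex (7 higher and 3 lower), to be read beside the shares of 11.1% and 12.2% of all genes. The list with the highest median log2 fold change in the hippocampus was the TRiC/CCT chaperonin, which folds actin and tubulin. Of its tested subunits, 7 of 7 were higher, with a median of 0.12 against 0.0012 for all genes tested, and none was called. DESeq2's Wald test called 2 of these genes in the hippocampus, *Dnaja2* and *Hspb8*, and 1 in the neocortex, *Fkbp5*, all higher in miR-324-null samples, where it called 0.939% and 1.61% of all genes. Without the miR-324-null neocortex sample numbered 5, edgeR called 3 of these genes in the neocortex, a share near the 3.76% of all genes called there. All 3 are on the list of endoplasmic reticulum stress genes and were lower in miR-324-null samples: *Xbp1* with a log2 fold change of -0.31, *Creld2* with -0.35 and *Herpud1* with -0.25. The sample left out was singled out because it stood apart in genes of this kind. The 3 calls depend on that choice and are not a separate test. Genes outside the lists' counts were picked here with their values known.

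The samples numbered 5 of the miR-324-null groups were next compared with their own tissue. The hippocampus sample was the highest of the 10 hippocampus samples for 8 of the 10 chaperones, for 35 of 91 other chaperone-network genes and for 1672 of 15391 genes in all (10.9%). The neocortex sample was the highest of its 10 for 9 of the 10 chaperones, for 51 of 91 other chaperone-network genes and for 2294 genes in all (14.9%). Both samples were the highest of their tissue for 8 of the 10 chaperones, all but *Dnajb1* and *Hspe1*, for 29 of the 91 other genes and for 474 of 15391 genes (3.08%). In WT mice the sample numbered 5 was the highest of its group of 5 for 6 of the 10 chaperones in the hippocampus and for 5 in the neocortex, against 8 and 9 for the miR-324-null sample numbered 5 in its own group. The shares of all genes above are for the highest of 10 samples, and no such share is given for the highest of a group of 5. These counts describe samples that were singled out because of the chaperones and carry no test.

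Among the other lists, the endoplasmic reticulum stress genes, the TRiC/CCT chaperonin, the co-chaperones of HSP90 and HSP70 and the other HSP90 family had many members at their highest in these samples. Of 14 endoplasmic reticulum stress genes, 10 were highest in the sample numbered 5 in each tissue and 8 in both, with a median ratio to the other miR-324-null samples of 1.34 in the hippocampus and 1.33 in the neocortex. *Sdf2l1*, a partner of *Hspa5* in the endoplasmic reticulum, had 16.6 CPM in the hippocampus sample against 7.88 to 11 in the other 9 samples. *Manf*, a secreted protein induced by this stress, had 49.8 CPM against 27.9 to 39.5, and *Hsp90b1*, the HSP90 of the endoplasmic reticulum, had 453 CPM against 262 to 331. In the neocortex sample the same genes had 9.83 CPM against 5.76 to 9.47 for *Sdf2l1*, 44.0 CPM against 25.7 to 35.4 for *Manf* and 435 CPM against 274 to 338 for *Hsp90b1*. These 3 genes had the highest mean ratios of the 91 and were chosen with their values known. Of the 7 TRiC/CCT subunits examined, 4 were highest in the hippocampus sample, 7 in the neocortex sample and 4 in both. Their median ratios were 1.08 and 1.13. Of 13 co-chaperones, 7 were highest in the hippocampus sample, 10 in the neocortex sample and 6 in both, and of the 3 other HSP90 genes 2 were highest in both. The nucleotide exchange factors, with 1 of 10 in each tissue, and the 6 heat-shock factors and regulators, with 0 in the hippocampus and 2 in the neocortex, had few.

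**Figure D3:**
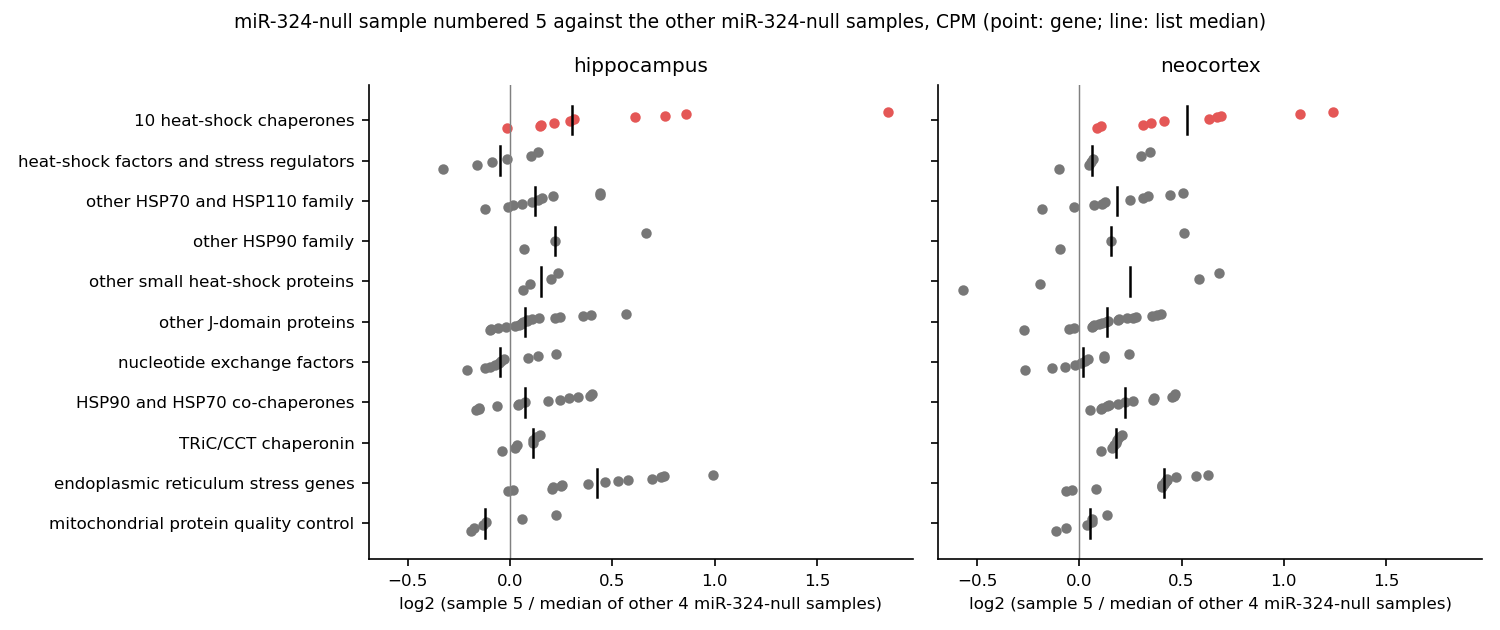
Log2 ratio of the miR-324-null sample numbered 5 to the median of the other 4 miR-324-null samples of its tissue (x axis, CPM with 0.5 added), for each gene (points) of the 10 chaperones in red and of 10 lists of other chaperone-network genes in grey, with the median of each list as a line. The chaperones and the endoplasmic reticulum stress genes lie furthest to the right, and the line of the latter is at a log2 ratio of 0.42 in both tissues.

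Cell type markers of these samples were read beside them. The summed TPM of 10 endothelial and pericyte markers was 387 in the hippocampus sample numbered 5, against 265 to 292 in the other miR-324-null and 295 to 326 in the WT hippocampus samples. It was 421 in the neocortex sample, against 305 to 327 in the other miR-324-null and 301 to 349 in the WT neocortex samples. Of the 10 markers, 3 were highest in the sample numbered 5 in the hippocampus and 4 in the neocortex, 3 of them in both. In the neocortex 1 of the 10 was lowest in that sample, and none was at 0 in a group. The part of these cells in the high chaperone levels was not tested, and in bulk tissue more cells of a type and more RNA per cell cannot be told apart. Choroid plexus markers were high in the hippocampus sample only, as given above. Of the 10 hippocampal field markers, 5 were highest in the hippocampus sample and 0 in the neocortex sample, which had the lowest sum of these markers in its group and the highest sum of neocortical layer markers of the 10 neocortex samples, as given above. All 6 meningeal fibroblast markers, 4 of 6 microglial and 3 of 6 astrocyte markers were lowest in the neocortex sample. In the hippocampus sample 4 of 6 oligodendrocyte and 3 of 6 astrocyte markers were lowest. Of the 6 glucocorticoid response genes, 3 were highest and 1 was lowest in the hippocampus sample. The estimated counts of the 2 samples, 14957163 and 18607442, were within the range of the series.

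Between tissues, 2 of the 10 chaperones differed in both genotypes, against 36.1% of the 14894 genes tested in WT and 27.4% of the 15033 tested in miR-324-null mice. *Hspe1* was higher in the hippocampus, with a log2 fold change of 0.32 ± 0.06 in WT (adjusted p = 4.7e-04) and 0.37 ± 0.09 in miR-324-null samples (adjusted p = 0.0110). *Dnajb1* was lower in the hippocampus, with -0.30 ± 0.06 in WT (adjusted p = 0.00134) and -0.18 ± 0.05 in miR-324-null samples (adjusted p = 0.0245). Of all genes, 18.1% were called higher and 18% lower in WT hippocampus, and 13.8% and 13.6% in miR-324-null hippocampus. The call of *Dnajb1* in miR-324-null mice was lost without both samples numbered 5 (log2 fold change -0.17, adjusted p = 0.0652), without hippocampus sample 4 (adjusted p = 0.0523), without neocortex sample 3 (adjusted p = 0.0698) and with a transcript-length offset in edgeR (adjusted p = 0.0784).

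The tissues did not overlap for *Dnajb1*, *Hspd1* and *Hspe1* in WT, against 26.5% of all genes, and for *Dnajb1* in miR-324-null samples, against 21%. *Hspd1* was on average higher in the hippocampus in both genotypes, by 0.09 ± 0.04 on the log2 scale in WT (adjusted p = 0.0822) and by 0.15 ± 0.06 in miR-324-null samples (adjusted p = 0.0672), and did not pass with edgeR, while 3 alternatives called it in miR-324-null samples. These were edgeR with all 20 samples in one fit (adjusted p = 0.0172, with 32.5% of all genes called), edgeR without neocortex sample 5 (adjusted p = 0.0407, with 26.2%) and DESeq2's Wald test (adjusted p = 0.0467, with 29.1%). For the remaining 7 genes the WT log2 fold changes lay between -0.24 for *Hspa1a* and 0.17 for *Hspb1*. The 95% interval in WT was -0.10 to 0.07 for *Hsp90aa1* and -0.15 to 0.04 for *Hspa8*, while it was wider for the weakly expressed *Hspa1b*, at -0.40 to 0.29. In miR-324-null mice the interval of *Hspb1* was -0.39 to 1.53, with 1 high sample in each tissue.

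**Figure D4:**
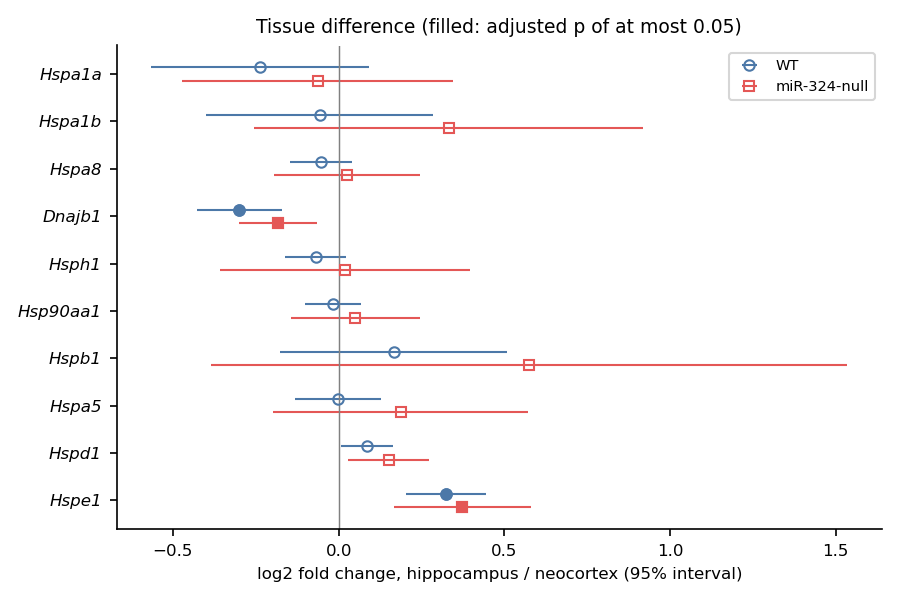
Log2 fold change of hippocampus against neocortex (x axis, with its 95% interval from the edgeR fit) in WT (circles) and miR-324-null samples (squares), filled where the adjusted p was at most 0.05. Dnajb1 is below 0 and Hspe1 above 0 in both genotypes, and the intervals of the other genes are wider in miR-324-null than in WT samples.

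Of the other chaperone-network genes, a share near that of all genes differed between tissues when both directions were counted together. In WT, 32 of 90 tested genes passed (19 higher and 13 lower in the hippocampus), and in miR-324-null mice 24 of 90 (19 higher and 5 lower), beside the 36.1% and 27.4% of all genes. By direction, 18.1% of all genes were higher and 18% lower in WT, and 13.8% and 13.6% in miR-324-null mice, so the split of the network genes was less even there. The largest differences toward the hippocampus were those of *Fkbp5*, a co-chaperone of the HSP90-bound glucocorticoid receptor (1.41 ± 0.07 in WT mice and 1.14 ± 0.12 in miR-324-null mice on the log2 scale), and of *Hspa2*, an HSP70 best known from testis (0.81 ± 0.09 and 0.73 ± 0.10). They were followed by *Hspb8*, *Cct5* and *Hspa12a* with 0.43, 0.36 and 0.34 in WT mice and 0.59, 0.34 and 0.40 in miR-324-null mice. The largest toward the neocortex were those of the small heat-shock gene *Hspb3* (-2.05 ± 0.22 and -2.08 ± 0.33) and of the heat-shock factor *Hsf4* (-0.90 ± 0.10 and -0.74 ± 0.12). *Herpud1*, a stress gene of the endoplasmic reticulum, followed with -0.48 and -0.31. The next were those of *Atf6* (-0.35) and *Atf4* (-0.35) in WT, and of *Dnajb2* (-0.25) and *Eif2ak3* (-0.23) in miR-324-null samples. Of 7 tested TRiC/CCT subunits, 4 were called higher in the hippocampus in WT and 5 in miR-324-null mice, and none lower.

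No chaperone passed the test of a genotype difference that differed between tissues. In the fit of all 20 samples the interaction called 0 of the 10 with edgeR, DESeq2 and limma, and 3 of 15391 genes (0.0195%). At an unadjusted p of at most 0.05 there were 0 of the 10, against 5.57% of all genes. The interaction estimates were all positive in edgeR (3 of them, of *Hsp90aa1*, *Hspd1* and *Hspe1*, were below 0 with limma), from 0.04 ± 0.11 for *Hspe1* to 0.40 ± 0.51 for *Hspb1* on the log2 scale, with adjusted p-values from 0.945 to 0.992. The genotype and tissue comparisons share their samples, so these signs are not independent. Of the 91 other chaperone-network genes 0 were called, and 4 had an unadjusted p of at most 0.05.

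The likeness of the genes was described by Pearson's r of log2 CPM over the 20 samples after the mean of each of the 4 groups was subtracted, among 15391 genes. The gene most like *Hspa8* was *Hsph1* (r = 0.96), followed by *Stip1* and *Ahsa1* (both r = 0.95), which are co-chaperones of HSP90. Those most like *Hsph1* were *Hspa8*, *Stip1* (0.96) and *Hsp90aa1* (0.95), and those most like *Hsp90aa1* were *Hsph1*, *Hsp90b1* (0.93) and *Dnaja4* (0.92). A second set lay around the endoplasmic reticulum: *Hspb1* was nearest to *Hspa5* (0.96), *Pdia4* (0.95) and *Pdia6* (0.94), and *Hspa5* to *Calr* (0.97), *Pdia6* (0.96) and *Hspb1*. *Calr* is a chaperone and the Pdia genes encode disulfide isomerases of the endoplasmic reticulum. For *Hspd1* they were *Rpn1* (0.85), *Hsp90aa1* (0.85) and *Chordc1* (0.82).

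The other genes had neighbours outside the chaperones. For *Hspe1* they were *Snx3* (0.92), *Dynll1* (0.89) and *Polr2l* (0.87), and its promoter partner *Hspd1* had an r of 0.42. For *Hspa1a* they were *Wfdc1*, *Ccdc92* and *Zfp975* (all 0.79), for *Hspa1b* *Tmbim4* (0.90), *Lrg1* (0.89) and *Hist1h2bc* (0.87), and for *Dnajb1* *Gfod2*, *Gskip* (both 0.77) and *Il1f9* (0.76). *Hspa1a* and *Hspa1b* had an r of 0.53 with each other, and *Dnajb1* had at most 0.36 with any other of the 10. All samples share the division by their own library total, and 2 of the 20 points are the samples numbered 5 that stood apart.

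Left out, those 2 samples lowered most of these values, and 10 of the 30 nearest genes named above stayed among the 3 nearest. Over the remaining 18 samples the r of *Hspa8* and *Hsph1* was 0.85, that of *Hspb1* and *Hspa5* was 0.81, that of *Hsph1* and *Hsp90aa1* was 0.71 and that of *Hspd1* and *Hsp90aa1* was 0.64. *Hspb1* and *Hsp90aa1* went from 0.82 to 0.11, and *Hspb1* and *Hsph1* from 0.86 to 0.37. *Hspa5* was still nearest to *Calr* (0.92), followed by *Pdia6* (0.88) and *Pdia3* (0.82), and *Hspe1* to *Snx3* (0.92) and *Dynll1* (0.90). *Hsph1* was still the gene nearest to *Hspa8*, but *Stip1* and *Ahsa1* were no longer among the 3 genes nearest to *Hspa8*. The nearest gene became *Lancl1* for *Hsph1* (0.86), *Mgea5* for *Hsp90aa1* (0.88), *Nes* for *Hspb1* (0.83) and *Znrd1as* for *Hspd1* (0.81). None of the 3 genes nearest to *Hsp90aa1*, *Hspd1* or *Hspa1a* was kept, and the r of *Hspa1a* and *Hsp90aa1* went from 0.29 to -0.63. *Hspa8* and *Hsp90aa1* went from 0.90 to 0.54, and *Hspa8* and *Hspa5* from 0.89 to 0.66. The highest pair of each set, *Hspa8* with *Hsph1* and *Hspb1* with *Hspa5*, thus stayed the highest of the 10 genes without these samples.

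**Figure D5:**
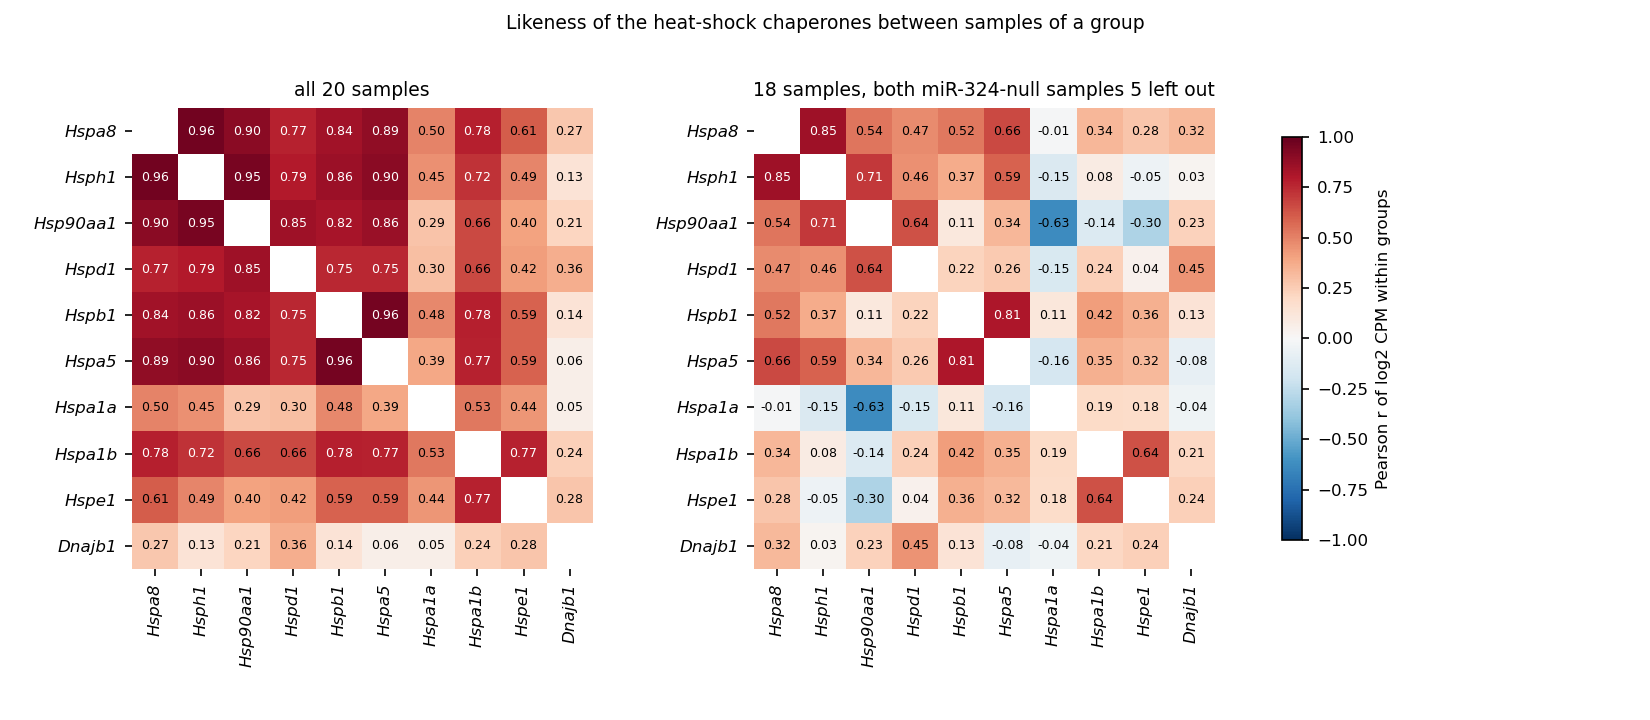
Pearson's r of log2 CPM within groups between each pair of the 10 genes (colour scale from -1 to 1, value printed in each cell), over all 20 samples on the left and over 18 samples without both miR-324-null samples numbered 5 on the right. The pair of Hspa8 and Hsph1 has 0.96 and 0.85, that of Hspb1 and Hspa5 0.96 and 0.81, and that of Hspb1 and Hsp90aa1 0.82 and 0.11.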

How the data were processed

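Bulk mRNA was sequenced in 20 samples, with 5 per genotype (WT or miR-324-null) from either tissue (hippocampus or neocortex), with groups and replicate numbers taken from the labels. The authors prepared stranded mRNA libraries, ran kallisto on an Ensembl mouse transcriptome and deposited the estimated counts of 115270 transcripts per sample. The deposited files also hold the TPM of each transcript, which kallisto computed from the estimated counts and effective lengths. The build listed in the submitters' processing notes is a human one, while the transcript identifiers are those of the mouse and the paper names GRCm38. A strand setting of kallisto was not given in the sources used here.

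By identifier 113580 transcripts were matched to GENCODE (GRCm38), and 1690, with at most 0.556% of the estimated counts, were left out. Estimated counts were summed per gene and rounded to whole numbers. Depth was 12752439 to 19617765 estimated counts per sample. Each comparison was fitted across all genes with edgeR 4.0.16 (R 4.3.3, limma 3.58.1) on its own 10 samples, or on 20 for the interaction, after edgeR's filter on low counts and TMM scaling. The quasi-likelihood test was used with Benjamini-Hochberg adjustment at 0.05. Levels are CPM scaled by TMM over all 20 samples. Exact permutation tests, correlations and counts were run in Python 3.11.15 (pandas 2.3.3, scipy 1.17.1, numpy 2.4.6), and transcripts alike in sequence were found with BLAST 2.17.0. The fits were tested on simulated counts. The effective lengths were the same in all 20 files. It was not stated that samples came from separate mice, so p-values measure the spread between samples.

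The 10 genes, the 98 further genes of the chaperone network (96 matched), the 92 markers and the tests were chosen with earlier results of these data known. Named were the 10 genes, the 5 largest differences in each direction among called network genes in each comparison, and for each of the 10 the 3 genes of highest correlation. Genes that fall outside this rule are marked in the text.

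The alternatives were DESeq2's size factors, library totals, no filter, at least 10 counts in every sample, DESeq2 1.42.0, Tximport's length offset with either tool, limma on log2 TPM with 1 or 0.1 added, all samples in one fit, a block for the replicate number, and each sample left out in turn. Leaving out both miR-324-null samples numbered 5 was chosen after seeing the data.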

Additional observations from a re-analysis of the deposited data

Results flagged for a closer look

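In 8 of the 40 combinations of a gene and a group, the sample farthest from the others was separated from them by more than Dixon's 95% limit for 5 samples, a gap of 0.71 of the whole range. About 1 in 20 groups would be marked so by chance. In 7 of the 8 it was the miR-324-null sample numbered 5. In the hippocampus these were *Hspb1* with 19.9 CPM, *Hspa5* with 331 CPM and *Hspa8* with 2177 CPM. In the neocortex they were *Hspb1* with 10.5 CPM, *Hspa8* with 2363 CPM, *Hsph1* with 439.5 CPM and *Hsp90aa1* with 1198 CPM. The remaining value was that of *Hspa5* in the WT hippocampus sample numbered 5, with 233 CPM against 206 to 209.9 in the other 4. The samples of a group are the same for each gene, so the 7 values come from 2 libraries.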

How the results depend on the processing

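Of 560 values of the 10 genes under another tool, scaling, filter or sample choice, 532 kept their direction and their side of the threshold, as did 562 of 600 with 1 sample left out. For genotype in the hippocampus DESeq2's Wald test called 1 of the 10 and 2 other chaperone-network genes, and with a length offset 1 of the latter. In the neocortex it called 1 other network gene. Between tissues in miR-324-null mice the length offset in edgeR called 1 of the 10 and 15 other network genes, limma called 13 and 12 of the latter with 1 and 0.1 added, and 1 of the 10 was called without both samples numbered 5. With 1 sample left out it was 1 to 3 of the 10 and 15 to 26 other network genes (16 without neocortex sample 2, 15 without sample 4). For genotype in the neocortex it was 0 to 3 of the latter.

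Same-numbered samples of the 2 tissues had correlations from -0.10 to 0.10 in WT mice and from 0.02 to 0.18 in miR-324-null mice. The latter were all above 0 and 3 of 5 were above 0.1, with the own number the best match for 3 of 5 hippocampus and 4 of 5 neocortex samples. As not all 5 passed 0.1 and the labels name no shared mouse, the number was not taken as a pairing. With it as a block 4 of the 10 were called between tissues in miR-324-null mice, Hspb1 (adjusted p = 0.0387) and Hspa5 (adjusted p = 0.0390) being added, and all-gene calls were 4 and 30 for genotype and 5044 and 4041 for tissue. The block turned Hspb1 in the hippocampus to -0.12 and Hspa5 between WT tissues to 4.0e-04.

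Values near 0 changed sign, and the cause was not tested. For genotype these were Hspb1 in the hippocampus with limma (-0.13 and -0.14 with 1 and 0.1 added) and Hspa1b in the neocortex by library totals (0.019). Between WT tissues they were Hspa5 by library totals (0.0077) and with no filter (6.1e-04), and Hsp90aa1 with the length offset (0.0084 in edgeR, 0.0085 in DESeq2). Between miR-324-null tissues they were Hsph1 by library totals (-0.0016), Hspa8 (-0.034) and Hsp90aa1 (-0.023) with limma and both values added, and Hspa1a without both samples numbered 5 (0.046). In the interaction limma gave -0.0053 for Hsp90aa1, -0.020 for Hspd1, and -0.0036 and -0.0039 for Hspe1.

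With 1 sample left out the ranges that crossed 0 were, for genotype, -0.55 to 0.26 for Hspb1 and -0.10 to 0.15 for Hspa5 in the hippocampus, and -0.084 to 0.20 for Hspa1a, -0.30 to 0.14 for Hspa1b, -0.021 to 0.14 for Hspa8 and -0.20 to 0.13 for the summed Hspa1a and Hspa1b in the neocortex. Between WT tissues they were -0.13 to 0.10 for Hspa1b, -0.028 to 0.0063 for Hsp90aa1 and -0.035 to 0.033 for Hspa5. Between miR-324-null tissues they were -0.15 to 0.11 for Hspa1a, -0.036 to 0.13 for Hspa8, -0.12 to 0.20 for Hsph1, -0.015 to 0.13 for Hsp90aa1 and -0.086 to 0.96 for Hspb1. In the interaction they were -0.056 to 0.26 for Hsph1, -0.0072 to 0.13 for Hsp90aa1, -0.26 to 0.78 for Hspb1, -0.0017 to 0.32 for Hspa5 and -0.0020 to 0.10 for Hspe1. Counts were low for Hspb1, with as few as 59 estimated counts in a sample, and for Hspa1a and Hspa1b, with as few as 96 and with reads they share. The SE of Hspb1 for genotype in the hippocampus was 0.38 in the main fit and 0.15 without the miR-324-null sample numbered 5. What set the precision was not tested.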

Other observations

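The spread within a group was read with and without the samples numbered 5. The coefficient of variation of *Hsp90aa1* was 1.47% in the WT and 10.7% in the miR-324-null hippocampus, and that of *Hspb1* was 16.8% and 81.8%. Over the 4 miR-324-null hippocampus samples without the one numbered 5 it was 4.71% for *Hsp90aa1* and 11.96% for *Hspb1*.

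Of the regulators of the heat-shock response, none of those tested passed between genotypes by edgeR. *Hsf1* had a log2 fold change of -0.12 ± 0.10 in hippocampus and -0.04 ± 0.06 in neocortex samples, while *Hsf2* had 0.12 ± 0.08 and 0.0040 ± 0.05. Both were named after their values were seen.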
